A study of Mus musculus with 42 samples.

Results

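The forestomach of mice given the high dose of benzo(k)fluoranthene (BkF) was compared with that of mice given the vehicle alone. BkF is a polycyclic aromatic hydrocarbon, and the mice were adult males of the Muta™Mouse strain, which carries a bacterial lacZ transgene for mutation assays and was about 11 weeks old. High-dose mice received 100 mg/kg-bw/day in olive oil by gavage on 28 days, vehicle mice received olive oil only, and tissue was taken 72 hours after the last dose. The arrays were taken by their labels: 3 high-dose arrays (D3, mice 16, 17 and 20) and 4 vehicle arrays (D0, mice 1, 2, 3 and 4), 7 of the 42 arrays of the series. Each array holds the RNA of 1 mouse against 1 common reference, Universal Mouse Reference RNA, a commercial pool. The 3 low-dose (25 mg/kg-bw/day) and 4 medium-dose (50 mg/kg-bw/day) forestomach arrays entered the fit to estimate the spread. They also entered the slope of the glandular score described below, where it was a covariate, and the slide terms, where the slide was a block. A value given for an array is the log2 ratio of sample over reference, and a change is the high-dose mean minus the vehicle mean on that log2 scale. Ratios are not compared between genes, since each depends on the gene's level in the reference.

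The mouse forestomach is the upper, non-secreting part of the stomach. It is lined by a stratified squamous epithelium, in which basal cells divide and their daughters keratinise, and it meets the glandular stomach, with its mucous, acid-secreting and enzyme-secreting cells, at a ridge. Polycyclic aromatic hydrocarbons bind the aryl hydrocarbon receptor (AhR), which enters the nucleus, pairs with Arnt and binds DNA at a site with the core GCGTG. Its best known targets are the cytochrome P450 genes Cyp1a1 and Cyp1b1, whose enzymes oxidise these compounds, and Ahrr, a repressor that competes with the receptor.

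The promoters of these 3 targets are shown because their transcripts were those of the AhR battery that stood above the vehicle group on all 3 high-dose arrays. Each runs from 250 bases before to 50 bases after the gene's RefSeq start on the gene's own strand (build GRCm38.p6), and capitals mark GCGTG or its reverse complement CACGC. Cyp1a1 is at chr9:57697363-57697662 on the plus strand, Cyp1b1 at chr17:79715012-79715311 on the minus strand and Ahrr at chr13:74292282-74292581 on the minus strand.
Cyp1a1: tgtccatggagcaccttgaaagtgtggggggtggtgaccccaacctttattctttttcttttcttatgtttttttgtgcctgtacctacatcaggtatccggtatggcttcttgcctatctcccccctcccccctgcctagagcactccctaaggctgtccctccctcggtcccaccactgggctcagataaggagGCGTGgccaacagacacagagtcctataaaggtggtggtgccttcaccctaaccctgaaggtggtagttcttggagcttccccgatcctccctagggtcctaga
Cyp1b1: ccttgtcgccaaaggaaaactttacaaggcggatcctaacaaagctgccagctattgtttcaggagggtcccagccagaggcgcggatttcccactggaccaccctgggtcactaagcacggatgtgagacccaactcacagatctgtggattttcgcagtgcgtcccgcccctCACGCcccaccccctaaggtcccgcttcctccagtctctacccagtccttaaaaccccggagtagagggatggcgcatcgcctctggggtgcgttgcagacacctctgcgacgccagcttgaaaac
Ahrr: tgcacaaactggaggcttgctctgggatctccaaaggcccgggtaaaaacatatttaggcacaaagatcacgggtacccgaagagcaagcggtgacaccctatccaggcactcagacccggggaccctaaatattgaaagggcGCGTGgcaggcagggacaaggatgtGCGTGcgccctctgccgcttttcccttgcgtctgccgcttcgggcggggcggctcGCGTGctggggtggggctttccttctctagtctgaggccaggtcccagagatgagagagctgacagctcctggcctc
The match began at base -54 in Cyp1a1 and at base -76 in Cyp1b1, where it lay on the opposite strand, and Ahrr had matches at -107, -82 and -27. Of the 12 AhR battery genes, 10 had such a window (Aldh3a1 and Ugt1a6b had none in the table used), and 6 of these held GCGTG on either strand, against 32.4% of all 32851 windows of 300 bases. The longer form TNGCGTG, which contains GCGTG, was in the windows of Ahrr and Gsta2, against 5.07% of all windows. A match describes these letters only and is no measure of binding.

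Before the dose was considered, the tissue itself was checked, since the samples differed in glandular stomach content. Gkn1, a secreted protein of gastric surface mucous cells, had a ratio of 0.47, 5.35, 4.74 and 0.14 in vehicle mice 1 to 4 and of 0.64, 5.27 and 0.30 in high-dose mice 16, 17 and 20. Atp4a, the catalytic subunit of the gastric proton pump, was at 6.39 and 6.09 in vehicle mice 2 and 3, at 5.32 in high-dose mouse 17 and between -0.28 and 0.17 on the other 4 arrays. So vehicle mice 2 and 3 and high-dose mouse 17 were high in both gastric genes, and both groups held arrays with high and low values. Low did not mean absent for every gastric gene: Gkn2, a second gastrokine, was at 5.43 in high-dose mouse 20 against 2.30 in vehicle mouse 4. The squamous genes did not follow this split: Krt5, a keratin of basal cells, lay between 3.35 and 3.83 on all 7 arrays, and Trp63, a transcription factor of the basal layer, between -0.17 and 0.45.

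**Figure D1:**
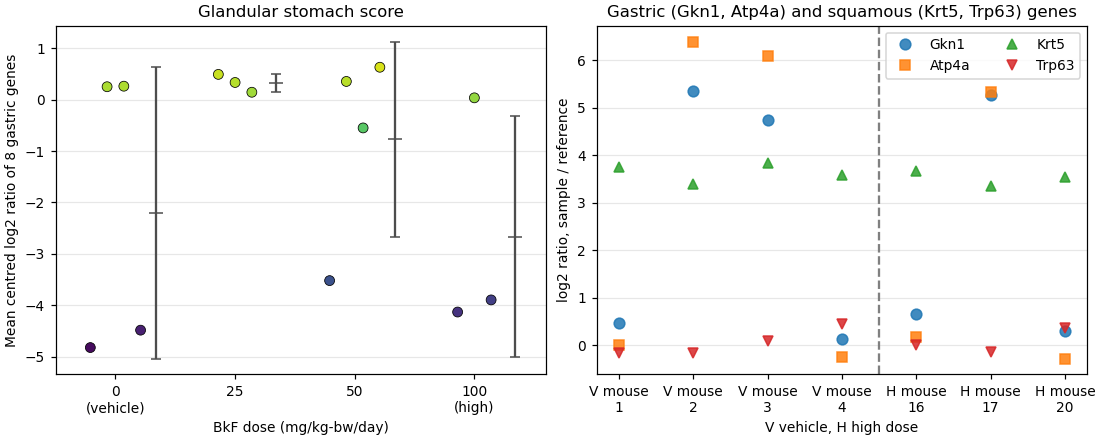
Left, the glandular stomach score of the 14 forestomach arrays (mean of 8 gastric genes, each centred on its median, log2) by BkF dose in mg/kg-bw/day, with the mean and SD of each dose beside the points; colour repeats the score. Right, log2 ratios of 2 gastric and 2 squamous genes on the 4 vehicle (V) and 3 high-dose (H) arrays: Gkn1 and Atp4a were high in mice 2, 3 and 17, while Krt5 stayed between 3.35 and 3.83.

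The glandular stomach score is the mean of 8 gastric genes, each centred on its median over the 14 arrays. It was -4.82, 0.25, 0.26 and -4.48 in the vehicle mice and -4.13, 0.034 and -3.90 in the high-dose mice. The groups overlapped, with means of -2.20 ± 2.84 (SD, n = 4) and -2.66 ± 2.34 (SD, n = 3). Their difference of -0.47 was well within that spread (exact permutation test over 35 splits, two-sided p = 0.94, with 0.029 the smallest p these splits allow). The slide carrying the arrays was partly tied to it. Vehicle mice 2 and 3, both with a high score, shared slide 2 with high-dose mouse 16, which had a low one, and the score differed there by -4.39. Vehicle mouse 4 and high-dose mouse 20, both with a low score, shared slide 3, where the score differed by 0.59. High-dose mouse 17 was on slide 1, with no vehicle array, and vehicle mouse 1 on slide 4, with no high-dose array. With the slide as a block in the fit, these mice entered the comparison only through the low- and medium-dose arrays on their slides.

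To keep glandular content apart from dose, every probe was fitted with the dose groups alone and again with the score as a covariate. The score term itself passed an adjusted p of 0.05 for 1791 of the 25321 probes tested (7.07%), 1497 of them higher with more glandular RNA (5.91%) and 294 lower (1.16%). Adding it moved the high-dose change by over 0.5 for 58 probes, all of which had passed the score term, and turned the sign of the change for 1277. Those 58 probes included 7 listed gastric genes. Chia1, an acidic chitinase of chief cells, went from a change of -1.67 to -0.86, and Atp4a from -1.32 to -0.70. Beside the gastric genes, 5 of 7 pancreatic acinar and 2 of 7 liver markers passed the score term. Liver markers had a lower mean at the high dose for 6 of 7 genes, with a median change of -0.71 that was -2.02 on slide 2, 0.18 on slide 3 and -1.14 to -0.11 with 1 array left out (-0.11 without vehicle mouse 2). Smooth muscle markers had a lower mean for 9 of 10, with a median of -0.42. Blocking on slide gave -0.12, and leaving out 1 array gave -0.71 to -0.18 (-0.71 without high-dose mouse 16, -0.18 without mouse 17). On slide 2 9 of these 10 were higher and on slide 3 0 were. Endothelial markers had a higher mean for 4 of 5, with a median of 0.34 that was 0.052 without mouse 16 and 0.85 without mouse 20. The part of these tissues in the results below was not tested. No white fat marker passed the score term, and their mean level was 5.95 in high-dose mouse 16 and 4.07 in vehicle mouse 4, against 1.18 to 2.64 on the other 5 arrays. In tissue pieces like these, fewer cells of a type and less RNA per cell cannot be told apart.

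**Figure D2:**
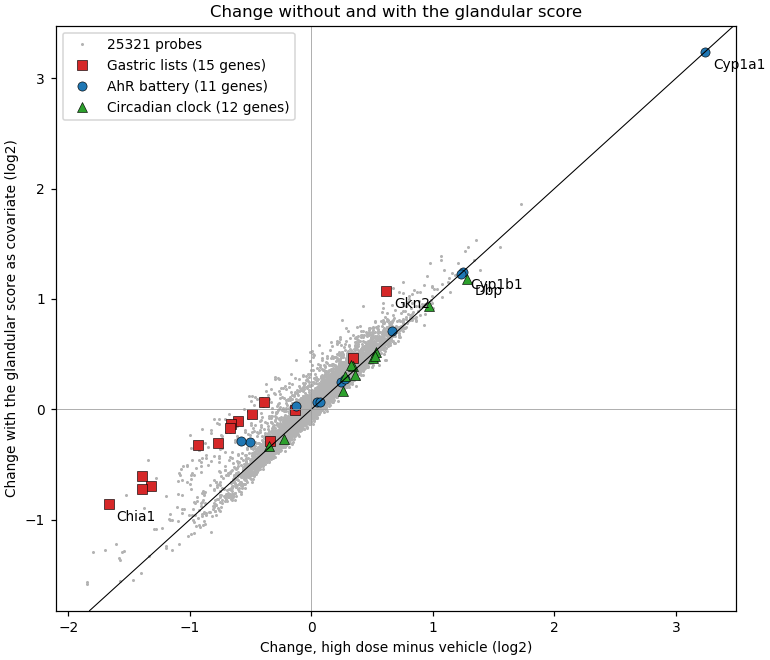
Change between high dose and vehicle (log2) of each of the 25321 probes, fitted with the dose groups alone (x axis) and with the glandular score as covariate (y axis); the line marks equal values. Gastric genes lie off the line, such as Chia1 at -1.67 and -0.86, while Cyp1a1 lies on it at 3.24 and 3.23.

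No probe passed an adjusted p of 0.05 with a fold of at least 1.5 in limma, in either fit: 0 of 25321 (0%), with smallest adjusted p-values of 1.00 and 0.993. The limma p before adjustment was under 0.05 for 557 probes (2.2%), of which 347 were higher (1.37%) and 210 lower (0.829%). With the score it was so for 846 (3.34%), 513 higher (2.03%) and 333 lower (1.32%). The median change over all probes was 0.0037. The 3 high-dose arrays all lay above the 4 vehicle arrays for 453 probes (1.79%) and all below for 282 (1.11%). The genes below are therefore described by their arrays, their change and their unadjusted p, and none of them passed the test over all probes.

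Of the AhR battery, 11 of 12 genes were tested. 8 had a higher mean and 3 a lower mean at the high dose, with a median change of 0.24, and 3 of the 11 had an unadjusted p under 0.05, all higher, against 1.37% of all probes. The same 3 (Cyp1a1, Cyp1b1 and Ahrr) were the genes whose groups did not overlap, against 1.79% of all probes. Cyp1a1 had ratios of 0.60, 0.38, -0.0087 and -0.39 in vehicle mice 1 to 4 and of 4.66, 3.42 and 2.08 in high-dose mice 16, 17 and 20. It was well above background on 1 of 4 vehicle arrays and on all 3 high-dose arrays. The change was 3.24 (SE 0.85, limma unadjusted p = 0.0022, adjusted p = 1.00), and 3.23 with the score. With its vehicle level mostly near background, Cyp1a1 passed the filter on dim probes through the dosed arrays, so the size of the change is loosely set. For the same reason its p and its place in the counts above are given as description only. Neither Cyp1a1 nor Ahrr, which was well above background on 2 of 4 vehicle arrays, was tested where all 7 arrays had to be so. The scanner software's own ratio, which differs in background and normalisation, gave 6.26, and normexp background correction gave 2.96. On slide 2 mouse 16 lay 4.47 above the mean of vehicle mice 2 and 3, and on slide 3 mouse 20 lay 2.47 above vehicle mouse 4.

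Cyp1b1 had ratios of -0.78, -1.04, -0.94 and -0.59 in the vehicle mice and of 0.40, 0.68 and 0.16 in the high-dose mice. The change was 1.25 (SE 0.39, limma unadjusted p = 0.0075, adjusted p = 1.00), the same to 2 decimals with the score, and 0.75 with both the slide and the score in the fit. Ahrr was at 0.037, 0.47, 0.39 and 0.050 in the vehicle mice and at 2.04, 1.27 and 1.07 in the high-dose mice. Its change was 1.23 (SE 0.24, limma unadjusted p = 0.00022, adjusted p = 1.00) in both fits and 2.45 with the scanner software's ratio. The score term was far from its threshold for all 3 genes (limma adjusted p = 0.98 for Cyp1a1, 0.99 for Cyp1b1 and 0.98 for Ahrr). High-dose mouse 17, the high-dose array with a high score, was the middle of the 3 for Cyp1a1 and Ahrr and the highest for Cyp1b1. At the medium dose Ahrr lay between 0.50 and 1.23, above all vehicle arrays, and Cyp1a1 between 0.64 and 4.78. At the low dose both overlapped the vehicle group, with 0.044 to 0.57 for Ahrr and 0.12 to 1.93 for Cyp1a1.

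**Figure D3:**
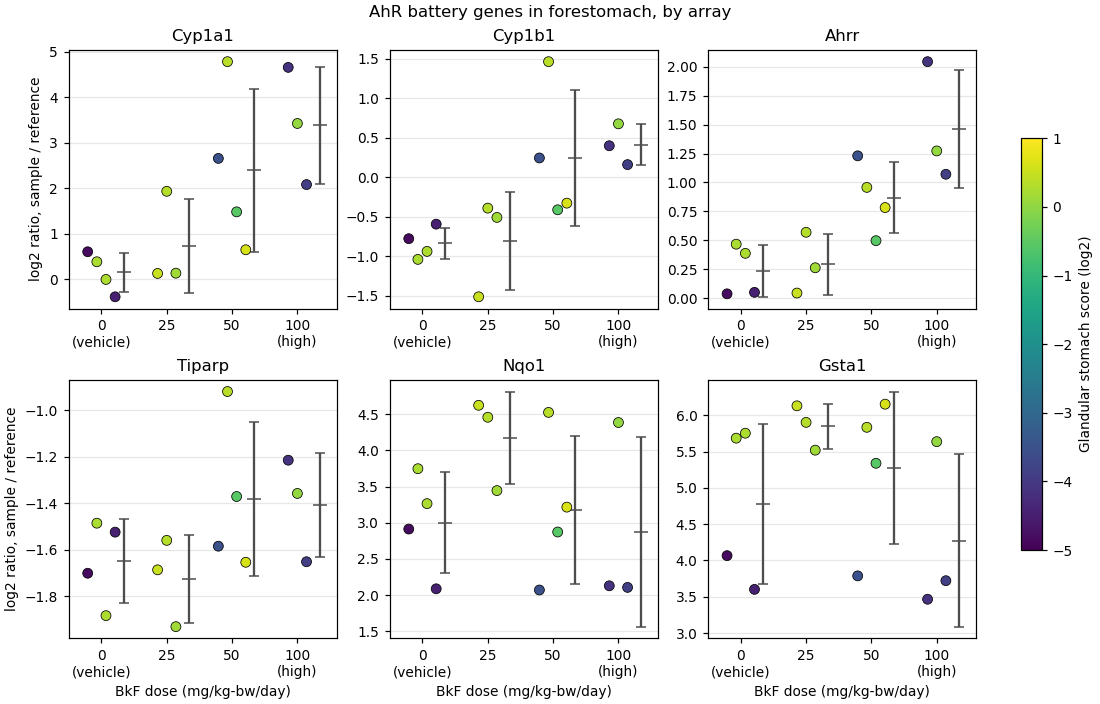
Log2 ratio of 6 AhR battery genes on each of the 14 forestomach arrays by BkF dose (mg/kg-bw/day), coloured by glandular score, with the mean and SD of each dose beside the points. Cyp1a1, Cyp1b1 and Ahrr separate high dose from vehicle at either colour, whereas Gsta1 and Nqo1 at these doses are higher in the arrays with a score near 0 (5.64 to 5.75 and 3.26 to 4.39) than in the others.

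Of the 11 tested battery genes, 3 passed the score term (7.07% of all probes did). Gsta1, a glutathione transferase, was at 5.69, 5.75 and 5.64 in the 3 mice with a high score (vehicle 2 and 3, high-dose 17) and between 3.47 and 4.07 in the other 4. Gsta2 and Nqo1, a quinone reductase, were ordered likewise, with 7.08 to 7.76 against 4.20 to 5.57 for Gsta2 and 3.26 to 4.39 against 2.09 to 2.91 for Nqo1. The limma adjusted p of the score term was 6.7e-06 for Gsta1, 8.8e-05 for Gsta2 and 0.023 for Nqo1, against 0.93 and 0.46 for the glucuronosyltransferases Ugt1a6a and Ugt1a6b. Their dose change moved from -0.50 to -0.29 for Gsta1, from -0.58 to -0.28 for Gsta2 and from -0.13 to 0.029 for Nqo1. Without the score these changes rested on single arrays, and that of Gsta1 ran from -1.18 without high-dose mouse 17 to -0.098 without mouse 16. Tiparp, an ADP-ribosyltransferase that modifies the receptor, changed by 0.24 with overlapping groups (limma unadjusted p = 0.22), and a second probe gave 0.33 (unadjusted p = 0.038). Ugt1a6b, a glucuronosyltransferase, was at 2.36 in high-dose mouse 17 but at 0.96 and 1.30 in mice 16 and 20, against 0.74 to 1.05 in the vehicle mice. Aldh3a1, Cyp2s1 and Ugt1a6a changed by 0.045, 0.070 and 0.28, each with overlapping groups, and a second Aldh3a1 probe was at -0.10. Cyp1a2 was not well above background often enough to be tested. In the receptor complex, Ahr itself, Arnt, Hsp90ab1 and Ptges3 had changes of 0.064 to 0.35 and Hsp90aa1 of -0.54 (-0.26 without vehicle mouse 2). None of these had an unadjusted p under 0.05 on the probe used. Other probes went the other way, at -0.057 for Arnt and at -0.095, -0.15 and -0.13 for Ptges3.

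Outside the AhR lists, the 8 genes with the highest change that kept an unadjusted p under 0.05 and their sign in both fits, with groups that did not overlap, included Pappa, Lyz1, Icosl, H2-Q8 and Srsf5 beside the 3 AhR targets. Over all probes, 0.715% met these conditions upward and 0.415% downward. Pappa, a protease that cleaves insulin-like growth factor binding proteins, was at 0.022, 0.45, 0.52 and 0.69 in the vehicle mice and at 1.99, 1.69 and 1.58 in the high-dose mice. Its change of 1.33 (SE 0.25, limma unadjusted p = 0.00016, the smallest of all 25321 probes, adjusted p = 1.00) was 1.35 with the score. On slides 2 and 3 it was 1.51 and 0.89. The 4 medium-dose arrays, at 0.76 to 1.96, also lay above all vehicle arrays. Icosl, the ligand of the T-cell costimulator ICOS, was at 2.24 to 2.27 in the high-dose mice against 0.68 to 1.57 in the vehicle mice. The lowest of these, vehicle mouse 1, stood apart from the other 3 (1.45 to 1.57). Lyz1, a lysozyme, was higher by 1.12 (limma unadjusted p = 0.033), which became 0.79 (unadjusted p = 0.12) with the slide as a block. The splicing factor gene Srsf5 was higher by 0.85 and the class I histocompatibility gene H2-Q8 by 0.89, which became 0.55 without high-dose mouse 20.

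The 8 genes with the lowest change under the same conditions were Tomm22, Bglap3, Cks2, H3c14, Ugcg, Sdc4, Pmvk and H4c12. Tomm22, a subunit of the mitochondrial import receptor, was at 0.19, 0.91, 0.65 and 0.12 in the vehicle mice and at -0.37, -0.44 and -0.51 in the high-dose mice (change -0.91, limma unadjusted p = 0.023). Cks2, which binds cyclin-dependent kinases, was at -0.89, -1.08, -1.31 and -1.11 against -2.01, -1.44 and -1.70 (change -0.62, unadjusted p = 0.0061). Pmvk, phosphomevalonate kinase of the cholesterol pathway, was at 0.96, 0.66, 0.88 and 0.98 against 0.36, 0.16 and 0.55 (change -0.51, unadjusted p = 0.011), though a second probe, at -0.26, had overlapping groups. Ugcg, which makes glucosylceramide, had a change of -0.58 that was -0.34 without high-dose mouse 17. At the low and medium dose Ugcg differed from vehicle by -0.87 and -1.04 and Pmvk by -0.75 and -0.57, all further than at the high dose. The rest of these 8 genes differed less from vehicle at both of those doses than at the high dose. Sdc4, a cell-surface proteoglycan, and the histone genes H3c14 and H4c12 lay lower by 0.51 to 0.61. Bglap3 was lower by 0.62 on the probe used (limma unadjusted p = 0.038, and 0.061 with the slide as a block), and its other 2 probes overlapped.

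**Figure D4:**
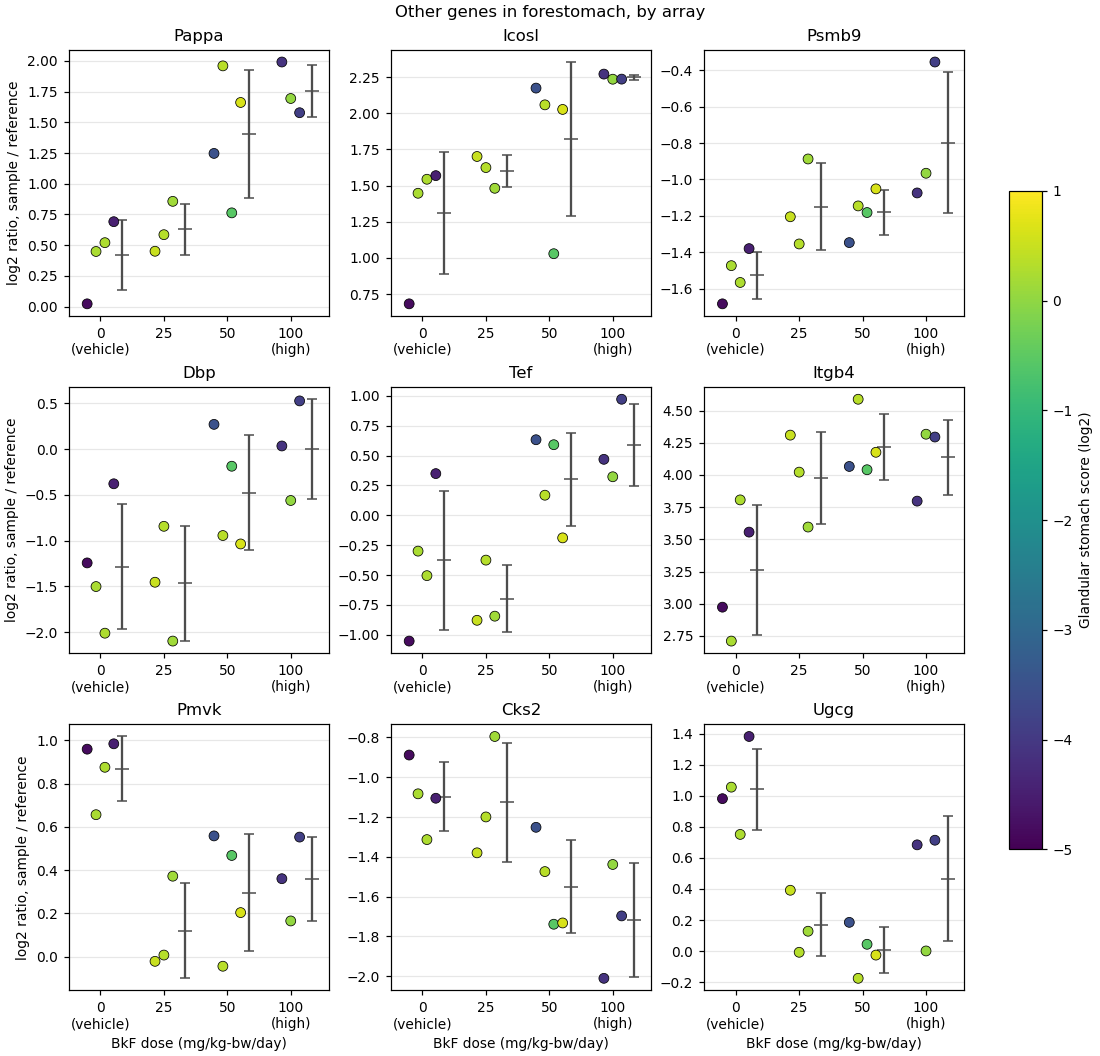
Log2 ratio of 9 genes on each of the 14 forestomach arrays by BkF dose (mg/kg-bw/day), coloured by glandular score, with the mean and SD of each dose beside the points. The 3 high-dose arrays lie above all vehicle arrays for Pappa (1.58 to 1.99 against 0.022 to 0.69) and below them for Pmvk (0.16 to 0.55 against 0.66 to 0.98), while Dbp and Tef overlap.

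Among the other process lists, the circadian clock and the basal epithelium had the highest median changes. 10 of its 12 tested genes were higher at the high dose (50.8% of all probes were), with a clock median of 0.35, which was 0.40 with the score and 0.29 with the slide as a block. 3 of the 12 had an unadjusted p under 0.05, all higher, against 1.37% of all probes. Dbp, a PAR bZIP transcription factor that is a direct output of the clock, was at -1.24, -1.50, -2.01 and -0.38 in the vehicle mice and at 0.035, -0.56 and 0.53 in the high-dose mice. Its groups overlapped through vehicle mouse 4, and the change was 1.28 (SE 0.43, limma unadjusted p = 0.011, adjusted p = 1.00). Of the 12 clock genes 2 passed the score term, against 7.07% of all probes. These were Nr1d1, a nuclear receptor (slope -0.21, limma adjusted p = 0.0052), and Dbp (slope -0.22, adjusted p = 0.047). The change of Dbp was 1.18 with the score. Tef, of the same family, was at -1.05, -0.30, -0.51 and 0.35 against 0.47, 0.32 and 0.97, a change of 0.97 (unadjusted p = 0.0073), again with vehicle mouse 4 overlapping. Nr1d2, a nuclear receptor that represses Arntl, changed by 0.50 (unadjusted p = 0.033), while on slide 3 it differed by -0.15 and with the slide as a block the unadjusted p was 0.064. Arntl and Clock, the activators of the loop, were the 2 lower genes, with -0.35 and -0.23. The hour of day at collection was not given in the sources used here, and its part in these values was not tested.

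The squamous lists did not hold 1 direction. In the basal list 8 of 11 genes were higher, with a median of 0.35. An unadjusted p under 0.05 in limma was found for 1 of the 11, higher, against 1.37% of all probes. With the score the median was 0.37, and 4 of the 11 were so, all higher, against 2.03% of all probes. With the slide as a block 1 was, higher, against 1.94%. Itgb4, a hemidesmosome integrin, was at 2.97, 2.71, 3.81 and 3.56 in the vehicle mice and at 3.80, 4.32 and 4.29 in the high-dose mice (change 0.87, limma unadjusted p = 0.0062, adjusted p = 1.00). Col17a1, a hemidesmosome collagen, differed by 0.99 with a low vehicle mouse 1 (2.81 against 4.63 to 4.94 in the other 3), and the basal keratins Krt5, Krt14 and Krt15 by -0.11, -0.064 and -0.10. The median of the basal list was 0.16 without vehicle mouse 1 or without high-dose mouse 17 and 0.23 without mouse 16, and within slides 2 and 3 it was 0.053 and 0.015. Of the cornified envelope genes 19 of 23 were lower (49.2% of all probes were), with a median of -0.24, and 0 had an unadjusted p under 0.05 in limma. Its mean level was 3.95 in high-dose mouse 17 against 4.47 to 4.78 in mice 16 and 20 and 4.42 to 4.77 in the vehicle mice. The median was -0.031 without mouse 17 and 0.064 with the slide as a block.

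Suprabasal keratins had a median of -0.36, with 9 of 11 lower. 4 of the 11 passed the score term, against 7.07% of all probes. Krt6a, Krt16 and Krt17, keratins of stressed and wounded epithelium, were at 2.85 to 4.40 in the 3 mice with a high score and at -0.14 to 1.19 in the other 4. These 3 and Krt6b were the genes that passed, with slopes of 0.44 to 0.60 log2 units per unit of score. On slide 2, where the score differed most, Krt16 was lower by 3.16 in mouse 16 than in vehicle mice 2 and 3, while Krt1, Krt4, Krt10, Krt13 and Krt78 differed by -0.11 to 0.027 and Krt76 by 1.24. The list median was -0.19 with the score and 0.0057 with the slide as a block. It ran from -0.44 to 0.037 with 1 array left out, and was within 0.1 of 0 without vehicle mouse 2 or 3 or without high-dose mouse 16 or 20.

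**Figure D5:**
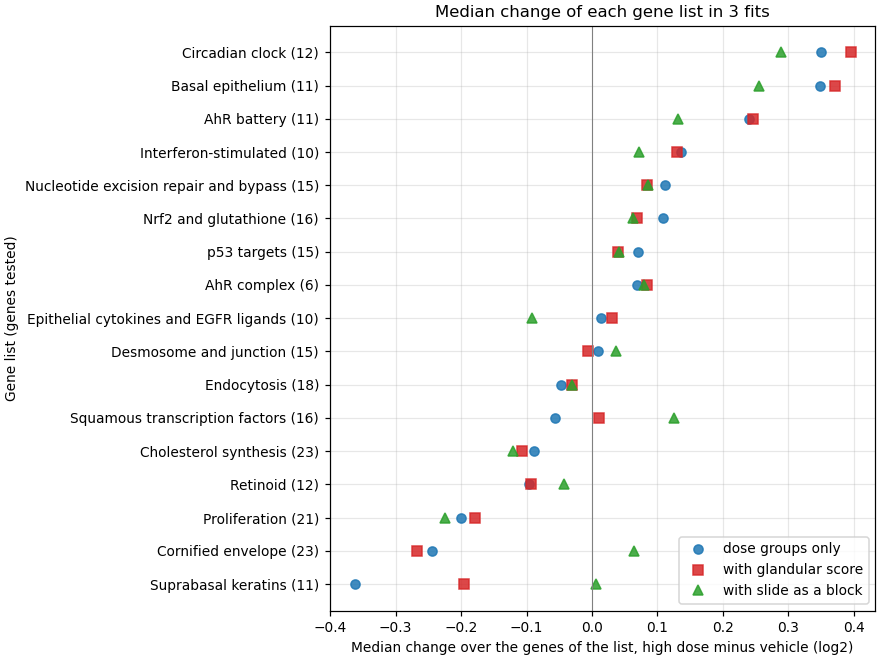
Median change (log2, high dose minus vehicle) over the tested genes of each list, whose number is in brackets, in the fit on dose groups alone, with the glandular score and with the slide as a block. The clock stays at 0.29 to 0.40 in all 3, while the cornified envelope and suprabasal keratin medians, -0.24 and -0.36, are near 0 with the slide as a block.

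DNA damage and repair lists stayed near the median of all probes. The p53 targets had 8 of 15 genes higher and a median of 0.071, with Cdkn1a, a cell cycle inhibitor, at -0.27 and Mdm2, which degrades p53, at 0.21. The nucleotide excision repair and bypass list had 9 of 15 higher and a median of 0.11. Its members Ercc1 and Ercc2, a nuclease subunit and a helicase of that pathway, had changes of -0.42 and 0.42, and that of Ercc1 was -0.18 without vehicle mouse 1. The Nrf2 and glutathione list had 9 of 16 higher and a median of 0.11, with Hmox1, heme oxygenase, at -0.66, which was -0.17 without high-dose mouse 17 and -1.11 without mouse 20. None of these genes had an unadjusted p under 0.05 in limma with the dose groups alone, and with the score 1 did, Gclc, a subunit of the enzyme that starts glutathione synthesis, at a change of 0.44 (unadjusted p = 0.046). Proliferation genes had 15 of 21 lower with a median of -0.20. High-dose mouse 16 was the lowest of the 7 arrays at a mean level of -2.64, and mouse 17 was the highest at -1.82. The median was 0.053 without mouse 16, -0.083 without mouse 20, -0.12 and -0.13 without vehicle mice 3 and 1, and -0.34 without mouse 17. With the dose groups alone 0 of the 21 had an unadjusted p under 0.05 in limma. With the slide as a block 5 did, all lower (Cdk1, Ccnb1, Bub1, Bub1b and Top2a), against 1.07% of all probes. With the score 1 did, in the other direction: Mcm6, of the replicative helicase, at 0.52. On slide 2 0 of the 21 were higher and on slide 3 6 were. Cholesterol synthesis had 17 of 23 lower and a median of -0.089, with Pmvk the 1 gene at an unadjusted p under 0.05. That median was 0.036 without mouse 16 and between -0.22 and -0.058 without any other array. Interferon-stimulated genes, epithelial cytokines and EGFR ligands, desmosome and junction genes, squamous transcription factors, retinoid genes and endocytosis genes had medians between -0.096 and 0.14.

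A list of class I histocompatibility and interferon gamma target genes was added after values had been seen, so it is given as a description with no test. 22 of its 23 tested genes were higher at the high dose, with a median change of 0.54. Psmb9, an immunoproteasome subunit, was at -1.68, -1.47, -1.57 and -1.38 in the vehicle mice and at -1.07, -0.97 and -0.35 in the high-dose mice. Irf1, an interferon-induced transcription factor, was at -1.92, -1.66, -1.50 and -1.20 against -1.26, -0.70 and -0.37. H2-K1, a classical class I heavy chain, was at -0.79, -0.24, 0.0011 and -0.38 against -0.21, 1.02 and 1.23. The mean level of the list was -0.80 to -0.46 in the vehicle mice, -0.36 and -0.33 in mice 16 and 17 and 0.37 in mouse 20, and the median change was 0.28 without mouse 20. It was 0.22 on slide 2, with 18 of 23 higher, and 0.92 on slide 3, with 21 of 23 higher. The heavy chain genes H2-K1, H2-D1, H2-Q7 and H2-T23 differed by -0.37 to -0.045 on slide 2 and by 0.92 to 1.61 on slide 3. Beside this, all 10 tested macrophage and class II genes had a higher mean, with a median change of 0.25 (0.12 without mouse 16), overlapping groups and 0 at an unadjusted p under 0.05 in limma. With the slide as a block the median of the macrophage and class II list was 0.56, and 5 of the 10 (C1qa, C1qb, C1qc, Cd74 and H2-Aa) had an unadjusted p under 0.05, all higher, against 1.94% of all probes. Within slides 2 and 3 the median was 0.49 and 0.62. The T cell list had 0 of 4 tested genes higher, with a median of -0.13 (50.8% of all probes were higher). The B and plasma cell list had 1 of 3 higher, with a median of -0.14. The part of immune cells in the class I values was not tested.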

How the data were processed

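RNA from 14 forestomachs was hybridised to 2-colour Agilent arrays, sample in Cy5 and reference in Cy3, with no dye swap. The authors deposited scanner files holding linear intensity medians and a log10 ratio per spot (Feature Extraction 10.7.3.1), and a table of log2 ratios normalised by LOWESS. Here those medians were turned into log2 ratios, normalised by loess within each array (limma 3.58.1, R 4.3.3), and spots of 1 probe were averaged, without control and flagged spots. Against the deposited log2 table, r was 0.994 to 0.999 with slopes of 0.988 to 0.998, so scale and direction were the same. Of 55681 probes, 25321 (45.5%) were well above background on at least 3 of the 14 arrays. Between 15663 and 25620 probes were so per array. The number of arrays limits the precision.

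All 14 arrays entered 1 limma fit with a term per dose group. The high-dose contrast was called where the Benjamini-Hochberg adjusted p did not exceed 0.05 and the fold reached 1.5. limma stood in for MAANOVA. All limma p-values are two-sided. Genes carry GRCm38.p6 RefSeq symbols (16946 of the probes tested, 13393 genes), and each is represented by its tested probe of highest mean intensity. Named were the AhR genes (1 is not reported here), the 2 genes of lowest p in each other process list with any at an unadjusted p under 0.05, and the 8 highest and 8 lowest changes described in the text. Other genes from the lists illustrate them and were chosen after their values were seen. The arrays follow from the labels, but this comparison and the gene lists were chosen with earlier results of these data known. Alternatives changed the covariates, slide, filter, background, normalisation, weights and arrays. The fit was tested on simulated data.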

Additional observations from a re-analysis of the deposited data

Results flagged for a closer look

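Of 98 genes, list levels and scores examined over the 4 vehicle arrays, 5 had 1 array whose gap to the nearest exceeded Dixon's critical value. About 1 group in 20 does so by chance. Icosl was 0.68 in vehicle mouse 1 against 1.45 to 1.57 in the others. Aldh1a1 was 3.83 in vehicle mouse 4 against 4.30 to 4.36. The other 3 lay in vehicle mouse 2. There Bbc3 was -1.95 against -1.44 to -1.36, Dhrs9 1.67 against 1.00 to 1.07, and the mean level of the proliferation list -2.31 against -2.06 to -2.03. Groups of 3, such as the high-dose arrays, were not examined this way.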

How the results depend on the processing

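The count of called probes was 0 under every alternative run, which included the glandular score, the slide and each of the 7 arrays left out. The number of probes at an unadjusted p under 0.05, 557 as reported, was 846 with the score, 289 with vehicle and high-dose arrays only, 1809 with no filter on dim probes, 285 where all 7 arrays had to be well above background, and 352 to 1128 with 1 array left out (1128 without vehicle mouse 4 and 352 without vehicle mouse 1). The cause was not tested. The white fat score as a covariate, chosen after seeing the data, gave 468. Over 60 named genes and 21 alternatives the direction was as reported in 1226 of 1250 fits, and 10 genes reversed at least once. Nqo1 was 0.029 with the score, 0.034 with the white fat and glandular scores and 0.015 with the score in the 2 groups alone. Cyp2s1 was -0.045 with the slide, -0.095 with slide and score and -0.086 with the scanner software's ratio, which also gave -0.013 for Aldh3a1, 0.051 for Cdk1 and -0.16 for Krt84. Aldh3a1 was -0.0089 after quantile normalisation and -0.010 with array weights, which gave -0.027 for Hsp90ab1. With 1 array left out the changes ran from -0.89 to 0.25 for Nqo1, from -0.028 to 0.11 for Aldh3a1, from -0.10 to 0.21 for Ptges3, from -0.093 to 0.16 for Hsp90ab1, from -1.67 to 0.10 for Gsta2, from -0.094 to 0.27 for Ahr and from -0.16 to 0.84 for Cxcl10. The glandular score difference of -0.47 ran from -1.81 to 0.35 with 1 array left out, and was -0.96 on Gkn1 and Atp4a alone. No paired analysis was possible because the vehicle and high-dose groups share no mouse number. Many probes were too dim to test, and Cyp1a1's vehicle level was near background.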
